A study of Mus musculus with 6 samples.

Results

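Lineage-negative, cKit-positive, Sca1-positive cells of mouse bone marrow are a mixture of blood stem cells and multipotent progenitors, and a small set of surface proteins is used to sort that mixture into its subsets. The genes of 9 such proteins were examined on 6 arrays: Procr, Slamf1 and Esam, Cd48, Cd34, Flt3 and Cd27, and the 2 proteins of the sort itself, Kit and Ly6a. They were chosen by gene symbol from the platform's annotation, which gave 11 probe sets for 8 of them, among 18194 genes tested. Ly6a, which encodes Sca1, had no probe set listed in the annotation used and is not analysed here.

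The arrays held 3 samples of Hes1-GFP positive cells and 3 samples of Hes1-GFP negative cells. Every sample came from mice aged 6 weeks with the genotype Hes1 GFP/WT, so the GFP-negative cells carried the reporter allele too. In each group replicate 1 was labelled female and replicates 2 and 3 male. Hes1 is a repressor of the Notch pathway, and the comparison asks how early blood cells with a signal from its locus differ from those without it. The labels name neither the strain nor the design of the reporter allele, nor do they say whether animals were pooled or whether the arrays came from separate animals, so each p-value covers the spread among these 6 arrays, which may be technical.

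Blood stem cells in adult mouse marrow are commonly recognised by the proteins of Procr (EPCR), Slamf1 (CD150) and Esam on their surface, with little or no CD48, CD34 and Flt3. As the cells become multipotent progenitors they gain CD34, CD48 and CD27, and those inclined to the lymphoid side gain Flt3. Kit and Sca1 define the whole fraction and do not divide it in this scheme. The roles of stem cell and progenitor marker used below follow this scheme. Whether it holds at the age of these mice, for CD34 in particular, was not tested.

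The sort was made on a reporter of Hes1, which recognises the N box, CACNAG, and the class C site, CACGNG, while Rbpj, the DNA-binding partner of Notch, recognises the core TGGGAA. Promoter windows from RefSeq (GRCm38.p6), 250 bases before to 50 after a gene's start, were found for 7 of the 9 genes, and 4 are shown because they belong to the stem cell markers Procr and Slamf1 and to the progenitor markers Cd48 and Flt3. Capitals mark a match to any of the 3 motifs on either strand. The windows lie at chr2:155750967-155751266 (+) for Procr, chr1:171766882-171767181 (+) for Slamf1, chr1:171681742-171682041 (+) for Cd48 and chr5:147400440-147400739 (-) for Flt3.
Procr: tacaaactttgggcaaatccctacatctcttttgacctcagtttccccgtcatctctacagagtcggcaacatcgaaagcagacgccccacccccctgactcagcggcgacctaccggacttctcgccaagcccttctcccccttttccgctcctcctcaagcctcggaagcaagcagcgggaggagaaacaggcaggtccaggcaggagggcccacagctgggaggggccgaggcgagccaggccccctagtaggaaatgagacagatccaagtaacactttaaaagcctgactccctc
Slamf1: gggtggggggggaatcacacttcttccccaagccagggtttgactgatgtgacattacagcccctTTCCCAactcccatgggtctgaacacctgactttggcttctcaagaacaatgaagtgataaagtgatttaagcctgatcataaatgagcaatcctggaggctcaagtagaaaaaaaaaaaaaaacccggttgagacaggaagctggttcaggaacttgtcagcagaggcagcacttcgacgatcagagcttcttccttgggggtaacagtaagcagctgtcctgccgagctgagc
Cd48: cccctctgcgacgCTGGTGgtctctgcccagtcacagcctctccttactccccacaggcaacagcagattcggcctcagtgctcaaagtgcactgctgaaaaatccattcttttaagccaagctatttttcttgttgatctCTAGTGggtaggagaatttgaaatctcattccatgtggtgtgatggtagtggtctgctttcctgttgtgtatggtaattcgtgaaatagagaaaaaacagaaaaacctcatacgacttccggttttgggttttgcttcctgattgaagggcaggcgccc
Flt3: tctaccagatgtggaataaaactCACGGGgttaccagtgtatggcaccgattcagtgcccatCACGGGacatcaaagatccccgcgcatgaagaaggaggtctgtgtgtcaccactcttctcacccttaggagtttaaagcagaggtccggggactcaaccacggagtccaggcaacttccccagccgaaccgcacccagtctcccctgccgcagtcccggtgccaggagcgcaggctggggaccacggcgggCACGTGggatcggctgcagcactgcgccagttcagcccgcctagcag
Cd48 held 2 N boxes, Flt3 held 3 class C sites, Slamf1 held 1 Rbpj core and Procr held none of the 3. Among the windows not shown, those of Cd34 and Cd27 held none and that of Kit held 3 N boxes, 1 of which overlaps a class C site. Of 32851 windows of the same length, 42.5% held an N box, 27.5% a class C site and 25.6% an Rbpj core. These matches describe letters in the window and do not show binding.

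The markers of stem cells had higher means in GFP-positive cells and the markers of progenitors lower ones. All 3 stem cell markers had a positive log2 fold change, from 0.77 to 1.41, and all 4 progenitor markers a negative one, from -0.89 to -0.38. None passed over all genes: limma called 0 of 18194 genes (0%) at an adjusted p under 0.05, and the members' adjusted p lay between 0.528 and 0.959. In 5 of the 8 genes the 3 GFP-positive and 3 GFP-negative arrays did not overlap, 1 higher and 4 lower, where 5.89% of all genes were wholly higher and 5.51% wholly lower. At an unadjusted p under 0.05 there were 2 higher (Procr and Esam) and 2 lower (Cd48 and Cd34), against 3.33% and 3.38% of all genes. This count depends on the probe set read for Slamf1, whose limma unadjusted p was 0.254 from the probe set of highest mean. From its other probe sets that p was 0.00355 and 0.0742. With the mean of its probe sets it was 0.00177 (limma adjusted p = 0.33). The unadjusted p of Esam, 0.0326, was 0.0501 with sex as a covariate and 0.0642 with array weights, and in the male arrays alone it was 0.204 for Esam and 0.138 for Procr. In these mixtures, fewer cells of a type and less RNA per cell cannot be told apart.

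**Figure D1:**
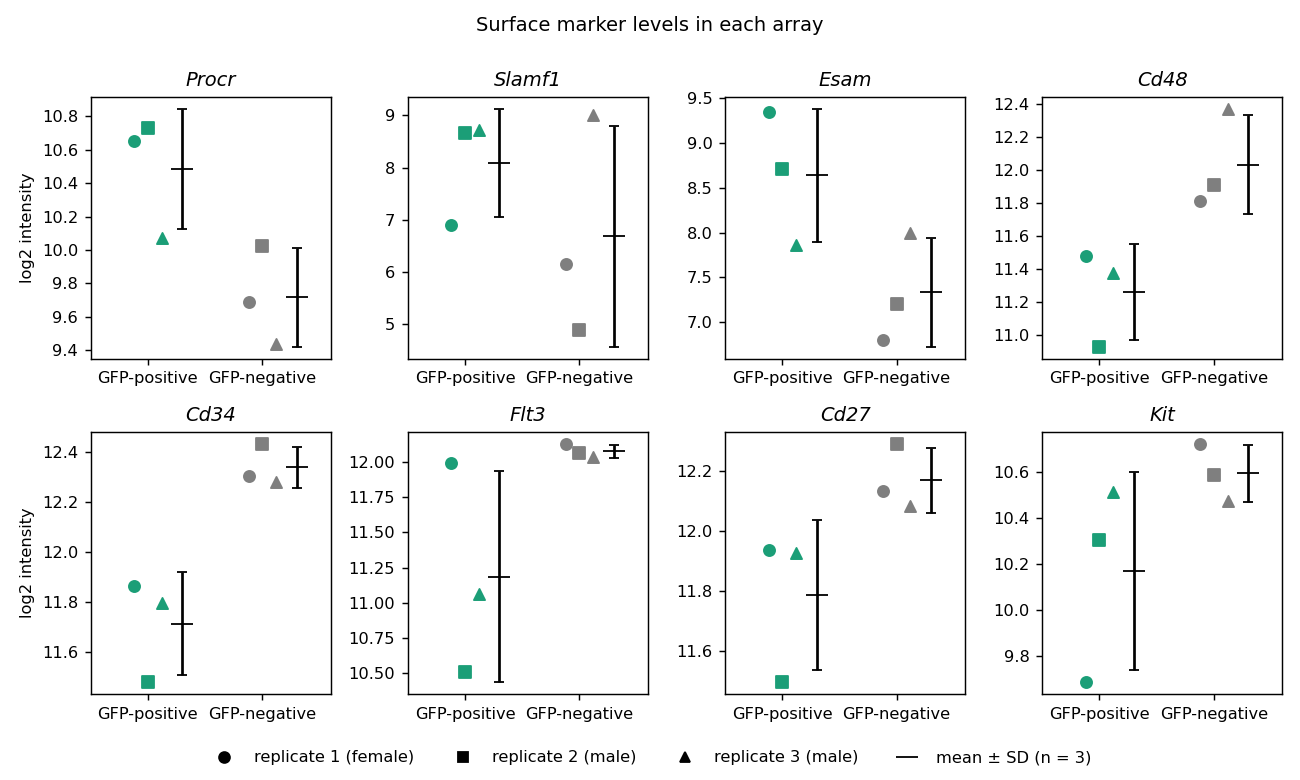
Log2 intensity (vertical axis, its own scale in each panel) of the 8 surface marker genes in the 3 GFP-positive (green) and 3 GFP-negative (grey) arrays, with symbols for replicate numbers and a bar for the mean ± SD. Procr lies wholly higher in GFP-positive arrays, Cd48, Cd34, Flt3 and Cd27 lie wholly lower, and Slamf1, Esam and Kit overlap.

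Procr encodes the endothelial protein C receptor, which binds protein C and marks long-term stem cells in this fraction. Its log2 intensity was 10.65, 10.73 and 10.07 in the GFP-positive replicates 1, 2 and 3, against 9.69, 10.03 and 9.44 in the GFP-negative ones. Each GFP-positive array lay above every GFP-negative array, but GFP-positive replicate 3 cleared GFP-negative replicate 2 by only 0.05. The log2 fold change was 0.77 ± 0.25 (SE, n = 3 per group; limma adjusted p = 0.64), a 1.70-fold difference, with a 95% interval of 0.14 to 1.39. Within the same-numbered arrays the differences were 0.96, 0.71 and 0.64. With the groups apart these had to be positive, so they add nothing to that separation. The two-sided exact permutation test gave p = 0.1, the smallest that 3 against 3 allows.

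Esam encodes an adhesion molecule of tight junctions, found on stem cells, endothelium and platelets. It was at 9.35, 8.71 and 7.86 in the GFP-positive replicates 1, 2 and 3, against 6.80, 7.21 and 7.99 in the GFP-negative ones. The groups overlapped through replicate 3, where the GFP-negative array was the higher by 0.13, while replicates 1 and 2 differed by 2.54 and 1.50. Its log2 fold change was 1.30 ± 0.47 (SE, n = 3 per group; limma adjusted p = 0.68), and the two-sided exact permutation p was 0.2. GFP-positive replicate 1 had the highest Esam signal, and endothelial and stromal genes stood high in that array. Of 16 such genes measured, 13 were highest there, with a summed linear intensity of 26305, 4400 and 2012 in the GFP-positive replicates 1, 2 and 3 against 3292, 2081 and 2985 in the GFP-negative ones. Cdh5, the cadherin that defines endothelium, was at 9.83, 4.91 and 4.65 in the GFP-positive arrays and between 4.29 and 5.01 in the GFP-negative arrays. Without GFP-positive replicate 1 the log2 fold change of Esam was 0.95 and that of Procr 0.68. In the 4 male arrays alone Esam was at 0.68 and Procr at 0.67.

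Slamf1 encodes CD150, a receptor that binds itself on neighbouring cells and separates stem cells from most progenitors. Its 3 probe sets differed in how they ranked the GFP-negative arrays. In the probe set with the highest mean, 1425569_a_at, the values were 6.90, 8.67 and 8.72 in the GFP-positive replicates 1, 2 and 3, against 6.16, 4.89 and 9.01 in the GFP-negative ones. GFP-negative replicate 3 was the highest of all 6 arrays here, and the groups overlapped. This gave a log2 fold change of 1.41 ± 1.12 (SE, n = 3 per group; limma adjusted p = 0.959) with a 95% interval of -1.32 to 4.14. It was 2.57 without GFP-negative replicate 3, 0.51 without GFP-negative replicate 2 and 2.01 without GFP-positive replicate 1, so single arrays set its size.

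A second Slamf1 probe set, 1425570_at, separated the groups. It was at 7.68, 7.26 and 7.50 in GFP-positive arrays and at 6.45, 4.92 and 5.06 in GFP-negative arrays, the lowest GFP-positive value lying above the highest GFP-negative one. In a fit over all 34958 probe sets with 1 gene its log2 fold change was 2.00 ± 0.44 (SE, n = 3 per group; limma adjusted p = 0.485). The third, 1425571_at, was at 7.55, 7.61 and 8.44 in GFP-positive arrays and at 6.41, 7.80 and 5.83 in GFP-negative arrays, a log2 fold change of 1.19 ± 0.56. All 3 probe sets thus had a positive fold change, while the GFP-negative array with the highest signal was a different one in each. The 3 lowest GFP-negative values of these probe sets, 4.89 to 5.06, were near the 5.06 to 5.59 that Xist showed in male arrays and the 3.42 to 4.69 of Y-linked genes in female arrays, both guides to background.

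**Figure D2:**
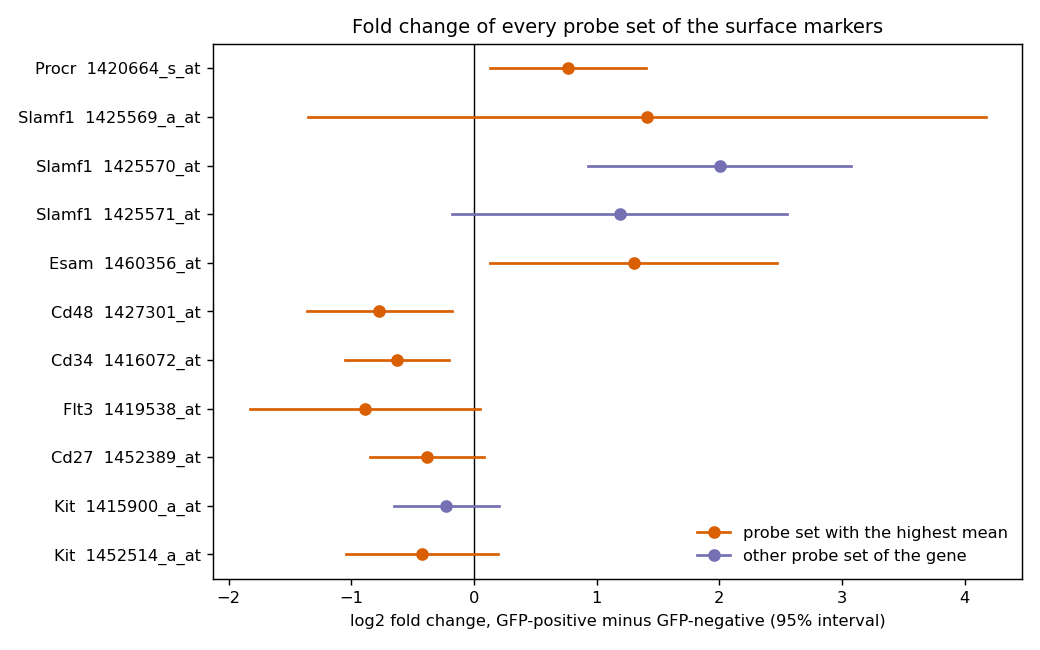
Log2 fold change (horizontal axis, GFP-positive minus GFP-negative) with its 95% interval from limma for each of the 11 probe sets of the 8 genes, from the fit over 34958 probe sets. All 5 probe sets of Procr, Slamf1 and Esam lie to the right of 0 and the 6 of Cd48, Cd34, Flt3, Cd27 and Kit to the left, and the widest interval is that of Slamf1 1425569_a_at.

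Each of the 4 progenitor markers lay wholly lower in GFP-positive arrays, as 5.51% of all genes did. That separation fixes the sign of all 12 same-numbered differences, so those add nothing to it. These 4 genes had high signals, from 10.51 to 12.43 on the log2 scale over all arrays. Cd48 encodes a ligand anchored in the membrane that binds the receptor CD244 and appears on progenitors as they leave the stem cell state. It was at 11.47, 10.93 and 11.38 in the GFP-positive replicates 1, 2 and 3, against 11.81, 11.91 and 12.37 in the GFP-negative ones. The groups were apart by 0.33, and GFP-negative replicate 3 was the highest array. This amounted to a log2 fold change of -0.77 ± 0.24 (SE, n = 3 per group; limma adjusted p = 0.592), a 0.586-fold level in GFP-positive cells.

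Cd34 encodes a sialomucin that, in the scheme above, mouse stem cells of the adult gain as they become multipotent progenitors. Whether Cd34 separates stem cells from progenitors at the age of these mice was not tested. Its values were 11.86, 11.48 and 11.79 in GFP-positive arrays against 12.30, 12.43 and 12.28 in GFP-negative arrays. The gap of 0.42 between the groups was wider than the spread of 0.39 within GFP-positive and 0.15 within GFP-negative arrays. The log2 fold change was -0.63 ± 0.17 (SE, n = 3 per group; limma adjusted p = 0.528). Its unadjusted p of 0.00926 was the smallest of the 8 genes when each was read from its probe set of highest mean.

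Flt3 encodes the receptor tyrosine kinase for Flt3 ligand and marks progenitors primed toward lymphoid and dendritic fates. The GFP-positive arrays spread widely, at 11.99, 10.51 and 11.06, while the GFP-negative arrays lay close together at 12.13, 12.06 and 12.04. GFP-positive replicate 1 lay only 0.05 below the lowest GFP-negative array, whereas replicates 2 and 3 lay well below. The difference came to a log2 fold change of -0.89 ± 0.38 (SE, n = 3 per group; limma adjusted p = 0.759), with a 95% interval of -1.81 to 0.03. It was -1.29 without GFP-positive replicate 1 and -0.55 without GFP-positive replicate 2.

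Cd27 encodes a receptor of the TNF receptor family carried by most progenitors of the fraction. It showed the smallest difference of the 4, with 11.94, 11.50 and 11.93 in GFP-positive arrays against 12.13, 12.29 and 12.08 in GFP-negative arrays. No arrays overlapped, although GFP-positive replicate 1 lay only 0.15 below the lowest GFP-negative array. The log2 fold change was -0.38 ± 0.18 (SE, n = 3 per group; limma adjusted p = 0.815), and -0.24 without GFP-positive replicate 2, the lowest array for all 4 progenitor markers. For each of the 4 separated genes the two-sided exact permutation p was 0.1, the smallest possible.

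Kit encodes the receptor for stem cell factor and was one of the antigens on which all cells had been sorted. Its main probe set was at 9.69, 10.30 and 10.51 in the GFP-positive replicates 1, 2 and 3, against 10.72, 10.58 and 10.47 in the GFP-negative ones. Replicate 1 of the GFP-positive group was the lowest, and the groups overlapped through replicate 3. Kit thus had a log2 fold change of -0.43 ± 0.25 (SE, n = 3 per group; limma adjusted p = 0.887), -0.19 without GFP-positive replicate 1 and -0.12 in the male arrays alone. The other probe set gave -0.23 ± 0.17, with GFP-positive arrays between 9.16 and 9.35 and GFP-negative arrays between 9.24 and 9.63.

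**Figure D3:**
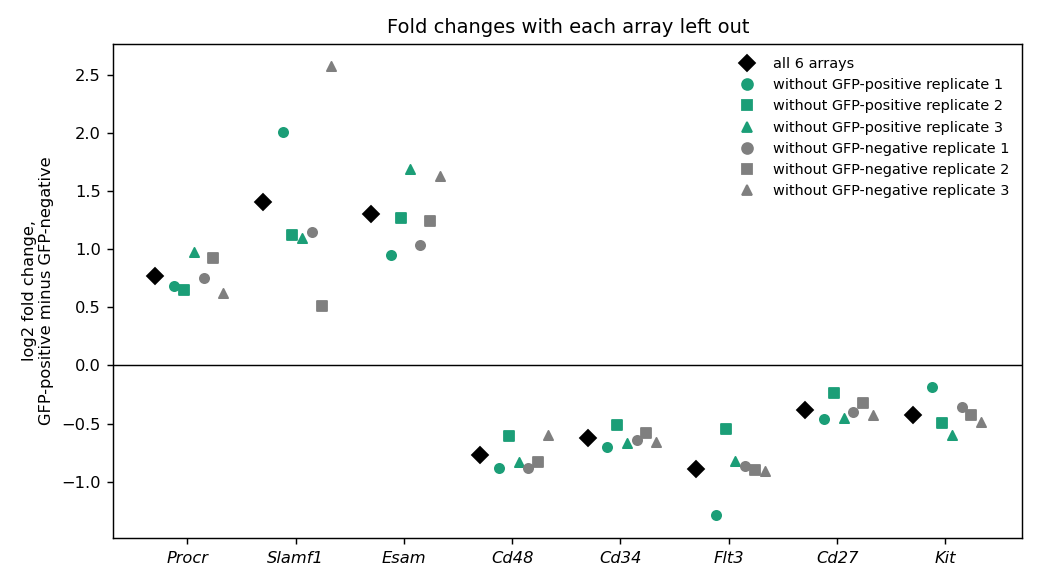
Log2 fold change (vertical axis, GFP-positive minus GFP-negative) of the 8 genes with all 6 arrays (diamonds) and with each array left out (green for GFP-positive and grey for GFP-negative arrays, symbols for replicate numbers). Every gene stays on its side of 0, and Slamf1 has the widest range, from 0.51 to 2.57.

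With any 1 array left out, every member kept its sign. Procr stayed between 0.63 and 0.97, Cd48 between -0.88 and -0.60 and Cd34 between -0.70 and -0.51, all within 1.5 times of the value from 6 arrays. Esam ranged from 0.95 to 1.69. Groups that do not overlap with 6 arrays cannot overlap with 1 fewer, while overlapping ones can come apart. Without GFP-positive replicate 1 the members stayed at 1 wholly higher and 4 wholly lower. The shares over all genes were then 13.2% wholly lower and 10.4% wholly higher. Neither Procr nor Esam then had an unadjusted p under 0.05 (0.0685 and 0.0923). The difference between the female pair and the male arrays was tested by the interaction of sex and GFP, which called 0 of 18194 genes (0%), with 1317 at an unadjusted p under 0.05. Among the members the smallest unadjusted p was that of Kit, 0.055, with a difference of -1.03 in the female pair and -0.12 in the males. Sex and replicate number 1 cannot be told apart.

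Slamf1 and Cd48 lie in a cluster of related receptors on chromosome 1, in the order Cd244a, Ly9, Slamf7, Cd48, Slamf1, Cd84 and Slamf6, with Slamf9 and Slamf8 farther along. The neighbours did not share a direction. Cd244a, the receptor for CD48 and itself a marker of progenitors, was at 9.19, 8.25 and 8.89 in GFP-positive arrays against 10.21, 10.73 and 10.38 in GFP-negative arrays. The groups were fully apart, with a log2 fold change of -1.66 ± 0.29 (SE, n = 3 per group; limma adjusted p = 0.325). Ly9, also called CD229, was at -0.70 ± 0.29, with its groups overlapping. In the other direction Slamf6, a receptor of lymphocytes, was at 7.49, 6.84 and 6.02 in GFP-positive arrays and between 5.53 and 5.62 in GFP-negative arrays, which is a log2 fold change of 1.22 ± 0.37. Of the 9 family members 2 had a positive fold change, 1 was wholly higher and 2 wholly lower, and the median was -0.15 against 0.008 over all genes. Over all genes 5.89% were wholly higher and 5.51% wholly lower. Of the family 0 passed over all genes, and at an unadjusted p under 0.05 there were 1 higher and 3 lower, against 3.33% and 3.38% of all genes.

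**Figure D4:**
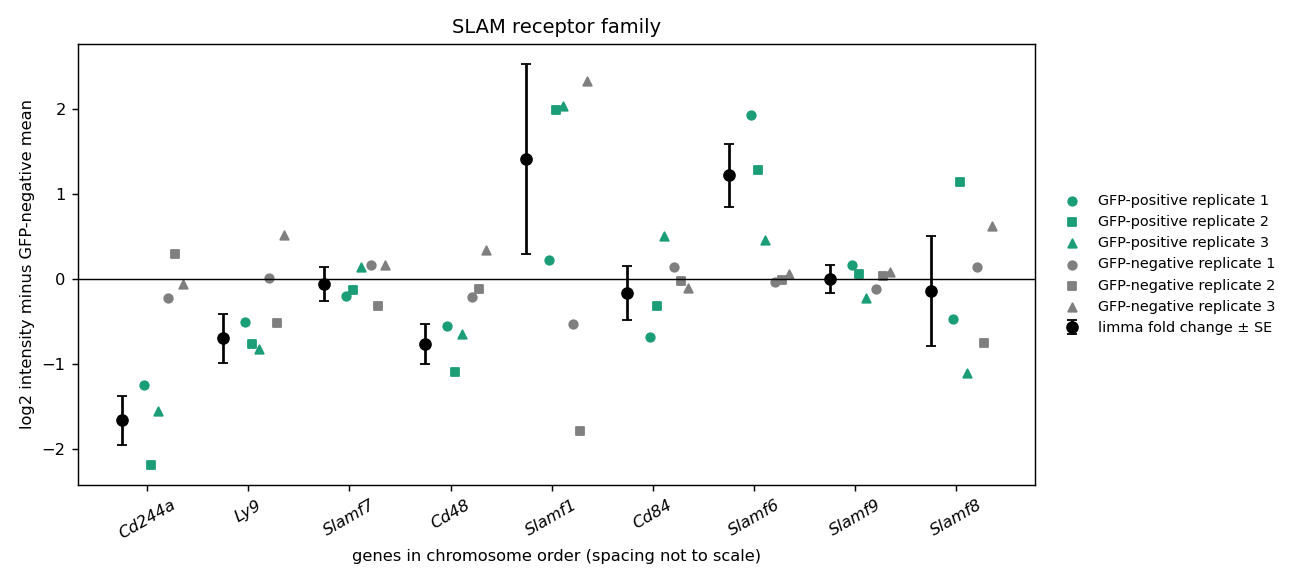
The 9 SLAM receptor genes in chromosome order (horizontal axis, spacing not to scale), with the log2 fold change ± SE from limma (black) and each array's log2 intensity minus the GFP-negative mean (green GFP-positive, grey GFP-negative, symbols for replicate numbers). Cd244a and Cd48 lie wholly lower in GFP-positive arrays, Slamf6 wholly higher, and the GFP-negative arrays of Slamf1 spread over 4.13 log2 units.

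Kit and Flt3 belong to the class III receptor tyrosine kinases with Csf1r, Pdgfra and Pdgfrb. Csf1r, the receptor for the macrophage growth factor, was at 8.36, 8.41 and 7.88 in GFP-positive arrays against 9.62, 11.12 and 10.52 in GFP-negative arrays. All 3 GFP-positive values lay below the GFP-negative ones, and its log2 fold change of -2.20 ± 0.40 was lower than those of Flt3 and Kit (limma adjusted p = 0.339). In this family of 5, 4 had a negative fold change, with a median of -0.43.

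Other surface proteins used on the same fraction were taken as a list of 33, of which 29 had a probe set. None passed limma over all genes (0 of 29). At an unadjusted p under 0.05 the count was 4 higher and 2 lower, against 3.33% and 3.38% of all genes. In 8 every GFP-positive array was the higher and in 4 every one was the lower, against 5.89% and 5.51% of all genes. The median log2 fold change was 0.31, against 0.008 over all genes. Tek, the angiopoietin receptor of quiescent stem cells and endothelium, was at 8.71, 7.67 and 7.04 in GFP-positive arrays and at 5.40, 4.81 and 4.74 in GFP-negative arrays. No arrays overlapped, and the difference was 2.82 ± 0.45 (log2 fold change ± SE, n = 3 per group; limma adjusted p = 0.255).

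The other genes with the smallest p in this list are given next, and its further members lay on both sides. Among those, chosen after their values were seen, Cd93 was at -0.53, Prom1 at -0.19, Itga6 at -0.16 and Alcam at -0.03. On the other side Robo4 was at 0.48 and Eng at 0.35, with GFP-positive replicate 1 the highest array in both. Robo4 differed by 1.85 in the female pair and -0.20 in the males, and Eng by 1.04 and 0.006. The groups overlapped in each of these genes, and Prom1, between 3.88 and 5.34, was near the background guides. Thy1, a marker of mouse stem cells at low level, was at 9.23, 10.07 and 8.70 in GFP-positive arrays against 8.13, 8.56 and 7.60 in GFP-negative arrays, a log2 fold change of 1.24 ± 0.42. Itga2b, the platelet integrin CD41, was at 9.47, 10.38 and 9.62 in GFP-positive arrays against 9.03, 8.94 and 9.45 in GFP-negative arrays, a log2 fold change of 0.68 ± 0.29, with GFP-positive replicate 1 just above GFP-negative replicate 3. The integrin chain Itga2 (CD49b) was at 1.54 ± 0.64, the tetraspanin Cd9 at 0.82 ± 0.27 and the adhesion receptor Vcam1 at 2.06 ± 0.57. Itga2 and Vcam1 did not overlap, while Cd9 did. On the lower side the smallest p after Csf1r was that of Cd52, a small glycoprotein of leukocytes, at 11.23, 10.79 and 10.53 in GFP-positive arrays against 11.79, 11.68 and 11.33 in GFP-negative arrays. The groups were apart, with a log2 fold change of -0.75 ± 0.24.

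**Figure D5:**
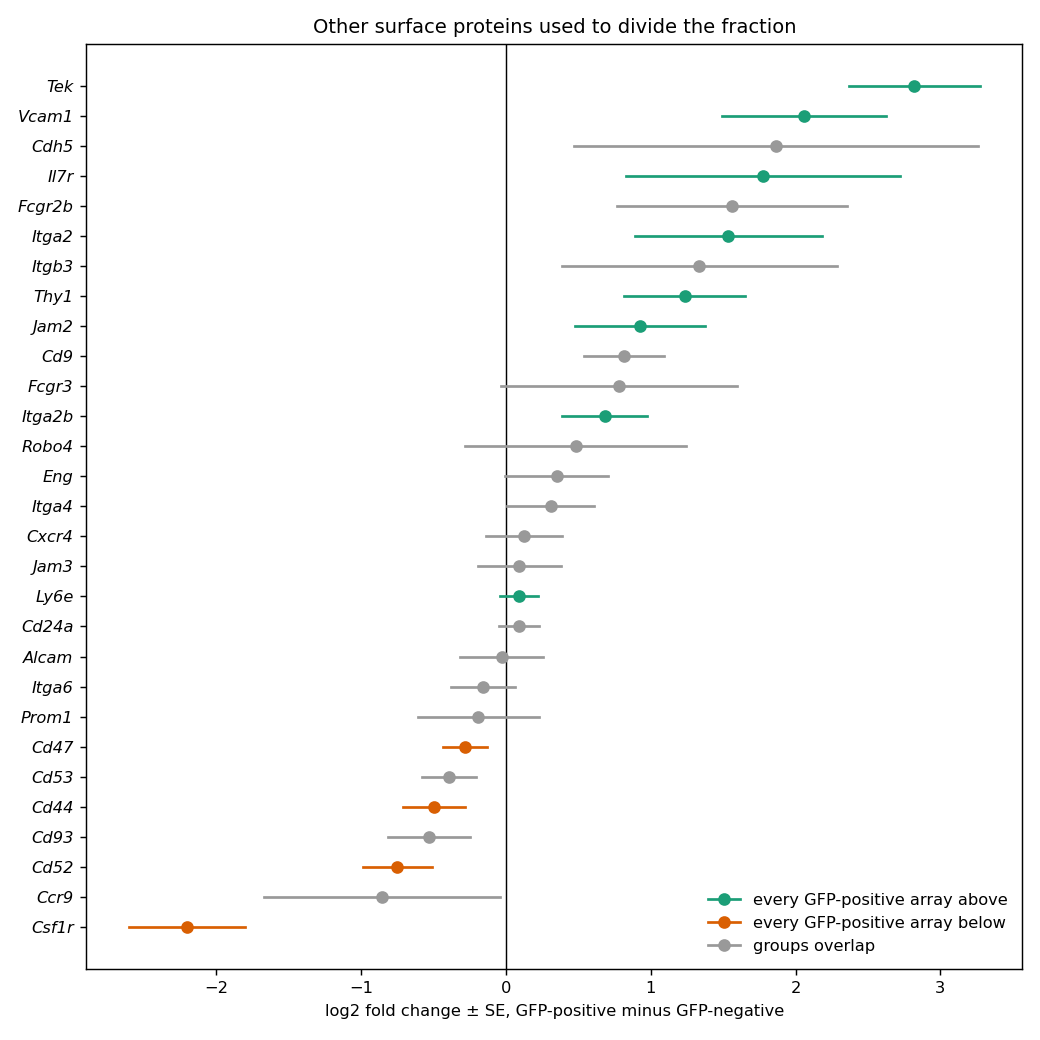
Log2 fold change ± SE from limma (horizontal axis, GFP-positive minus GFP-negative) of the 29 other surface protein genes, coloured by whether every GFP-positive array lay above (8 genes, green), below (4 genes, orange) or neither (grey). Tek lies farthest to the right and Csf1r farthest to the left.

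Of 28 ligands, partners and adaptors of the 9 proteins, 26 had a probe set, with a median log2 fold change of 0.17 against 0.008 over all genes. Over all genes 0 passed, and an unadjusted p under 0.05 was reached by 1 on each side. That is close to the share over all genes, 3.33% higher and 3.38% lower. Cd244a, given above, was lower. On the higher side stood Crkl, an adaptor that passes on Kit signals, at 10.64, 10.49 and 10.34 in GFP-positive arrays against 10.08, 10.15 and 10.14 in GFP-negative arrays, a log2 fold change of 0.36 ± 0.15. Ptpn6, a phosphatase that damps Kit signalling, was at 10.09, 10.47 and 10.21 in GFP-positive arrays and 10.58, 10.76 and 10.57 in GFP-negative arrays, with no overlap and a log2 fold change of -0.38 ± 0.17. Kitl, the ligand of Kit, was at 7.21 in GFP-positive replicate 1 and between 5.54 and 6.03 in the other 5 arrays.

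Markers of other blood cells also differed in level between the groups, and their part in the members' differences was not tested. Over all genes 5.89% were wholly higher and 5.51% wholly lower. Beside the endothelial list given with Esam, 6 of 10 erythroid genes were wholly higher, with summed linear intensities of 5876 to 7846 in GFP-positive arrays against 1198 to 1446 in GFP-negative arrays. The megakaryocyte list, which shares Itga2b and Vwf with lists above, had 7 of 9 wholly higher, at sums of 6854 to 8926 in GFP-positive arrays against 1722 to 3052 in GFP-negative arrays. B lineage genes were wholly higher in 6 of 10, with sums of 3436 to 11358 in GFP-positive arrays against 1233 to 2648 in GFP-negative arrays. For monocytes and macrophages 5 of 11 were wholly higher and 1, Csf1r, wholly lower. Their sums overlapped between the groups, at 3683 to 7294 in GFP-positive arrays and 2186 to 3925 in GFP-negative arrays. Sums also overlapped for T and NK genes, with 2 of 9 wholly higher (2428 to 3780 in GFP-positive arrays, 3060 to 3772 in GFP-negative arrays). Granulocyte genes had overlapping sums too, with 2 of 9 wholly higher (13381 to 31833 in GFP-positive arrays, 12137 to 16507 in GFP-negative arrays). So did mast cell genes, a list that includes Kit (2172 to 3490 in GFP-positive arrays, 2302 to 2584 in GFP-negative arrays). Of these 3 of 7 were wholly higher and 1 wholly lower. Median log2 fold changes were 1.88 for the B lineage, 1.82 for macrophage, 1.47 for erythroid, 1.38 for endothelial and stromal and 0.94 for megakaryocyte genes, and 0.81, 0.16 and 0.08 for mast cell, T and NK, and granulocyte genes, against 0.008 over all genes. Of 14 antigens of the usual lineage antibodies 9 had a probe set. Of these 9, 2 were wholly higher and 1 wholly lower. Among them Cd3e, part of the T cell receptor complex, was between 5.38 and 5.98 in all 6 arrays, near the background guides. Others stood well above the guides, such as Cd4, between 8.23 and 9.92 in all arrays. Il7r was between 9.11 and 10.03 in GFP-positive arrays and between 5.63 and 9.05 in GFP-negative arrays. Cd79a of the B cell receptor was at 7.99, 7.67 and 9.98 in GFP-positive arrays and between 5.79 and 5.87 in GFP-negative arrays.

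For the 3 members with the widest range over the arrays, the genes of most similar profile were sought by the mean absolute difference of centred log2 values over 6 arrays, among 9096 genes with a mean above the median gene. The closest to Flt3 was Cfap298, at 0.10, with 9.83, 8.19 and 9.03 in GFP-positive arrays against 10.01, 9.79 and 9.74 in GFP-negative arrays. Next came Zbtb34 at 0.11 and Dennd3 at 0.15. For Esam the closest was Il12rb1 at 0.20, followed by Rps19bp1 and Strada at 0.25 each. The closest to Slamf1 lay farther off, with Coq3 at 0.47, Vdr at 0.52 and Abcg3 at 0.56. Between members the nearest profiles were those of Cd34 and Cd27, at 0.12, and of Cd48 and Cd34, at 0.16, while Slamf1 and Flt3 were farthest apart, at 1.84. The measure is not scaled to a gene's range over the arrays, so it partly follows that range. Among the members the range was widest for Slamf1, at 4.13, and narrowest for Cd27, at 0.79.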

How the data were processed

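Total RNA was amplified, labelled with biotin and hybridised to Affymetrix arrays, per the labels' protocols. The authors deposited 1 linear intensity per probe set and array for 45101 probe sets, made with RMA per the submitters' processing notes (its version is not given in the sources used here). This method corrects background, normalises by quantiles and compresses low signals, which can understate differences of dim genes. Array medians lay between 74.0 and 78.5, no 2 arrays were identical, and 0 columns went unused.

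Log2 was taken with no pseudocount. The platform annotation gave 34958 probe sets 1 symbol, 932 several and left 9211 unlisted. Each gene was read from its probe set of highest mean log2 value, leaving 18194 genes. The groups were compared with limma 3.58.1 (lmFit, eBayes; R 4.3.3) without covariates, with Benjamini-Hochberg adjustment over all genes and a threshold of 0.05, beside a two-sided exact permutation test (scipy 1.17.1). The pipeline was tested on simulated data. Named genes were all members and, per list, those of smallest p (at most 8 of the other surface proteins and of the partners, at most 4 of other lists). Members of lists quoted for background (Cdh5, Cd3e) were chosen after their values were seen. The members and lists were chosen with earlier results of these data known. Alternatives covered probe set choice, a filter on dim genes, variance priors, array weights, normalisation, a pseudocount of 16, the replicate block, sex and the omission of each array. The number of arrays limits the precision.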

Additional observations from a re-analysis of the deposited data

Results flagged for a closer look

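In 2 genes named among the partners, both GFP-positive male arrays lay on 1 side of both GFP-negative male arrays while the female pair went the other way. Socs2, a feedback inhibitor of cytokine receptors, was at 6.40, 9.37 and 9.02 in the GFP-positive replicates 1, 2 and 3, against 7.79, 6.29 and 5.54 in the GFP-negative ones. The difference was -1.39 in the female pair and 3.28 in the males (interaction -4.67 ± 0.60, SE; limma adjusted p = 0.335). Cblb, a ubiquitin ligase, was at 9.04, 8.46 and 6.79 in the GFP-positive replicates 1, 2 and 3, against 8.86, 9.93 and 9.07 in the GFP-negative ones. Its difference was 0.18 in the female pair and -1.87 in the males (interaction 2.06 ± 1.20, SE; limma adjusted p = 0.826). Neither interaction passed the threshold. Outside the partners, Prom1, Cd93, Cd3e and Dennd3, quoted above, showed the same pattern. Genes whose values are not quoted above showed it too. Among them were the partners Ptpn11, Traf5, F2r, Siva1 and Gab2, and Pdgfrb, Itga4 and Jam3 of other lists. The pattern is thus not particular to the genes described here. The difference in Prom1, a dim gene, was 1.08 in the female pair and -0.83 in the males (interaction, limma adjusted p = 0.462). In Cd93 the female pair differed by only 0.007.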

How the results depend on the processing

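No member changed sign or side of the threshold in the 17 to 19 alternatives run for each, with adjusted p between 0.329 and 1.00. The count of genes called, 0 with all arrays, became 1 (Ermap) with the dimmest 40% of genes left out and 1 (Ermap) at an adjusted p under 0.1. It ranged from 0 to 5 with each array left out, the 5 without GFP-positive replicate 3 being Ermap, Igk, Igkv8-30, Jchain and Pou2af1, chosen after their values were seen. The interaction of sex and GFP called 18 genes with an intensity trend. With each array left out, an alternative added after the data were seen, 1 to 3 members were wholly higher and 4 to 5 wholly lower, and 0 to 2 were higher and 1 to 3 lower at an unadjusted p under 0.05. A gene separated with 6 arrays stays so with 5, and over all genes 9.46% to 14.2% were then wholly higher and 9.25% to 13.2% wholly lower. At an unadjusted p under 0.05 the shares over all genes were 2.57% to 3.76% higher and 2.78% to 3.76% lower. Of the other surface proteins 8 to 11 were wholly higher and 4 to 6 wholly lower, and 3 to 5 were higher and 1 to 3 lower at an unadjusted p under 0.05. Same-numbered arrays deviated together by correlations of 0.12, 0.05 and 0.09, and each array correlated best with its own number. The labels do not say whether same-numbered samples came from the same animals, and these correlations cannot settle it. With the replicate block limma called 0 genes, as without it, and the members' adjusted p lay between 0.499 and 0.862, while the unadjusted p of Esam, 0.0326 without it, was 0.0806. The causes of these shifts were not tested.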
